A study of Mus musculus with 10 samples.

Results

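MHC class II presentation genes were described in CD8+ cDC1, the splenic dendritic cells that are specialized in cross-presentation. The group was chosen by symbol and held H2-Aa, H2-Ab1, H2-Eb1, Cd74, H2-DMa, H2-DMb1, H2-DMb2, H2-Oa, H2-Ob and Ciita. All 10 genes were found among the 10767 genes of the RNA-seq table. No measured value entered their choice, but earlier results of these data were known when it was made. The cells came from untreated Ppef2+/+ and Ppef2-/- mice, which were 8 to 13 weeks old and matched for sex and age. Ppef2-/- mice carry a knockout-first allele from JM8A3.N1 embryonic stem cells in all cells of the body, with a gene trap cassette in front of a floxed exon, and were crossed with C57BL/6 mice. In each of 5 sorts, the spleens of 3 mice per genotype were pooled, giving 5 libraries per genotype. Cells were sorted as CD11c+ MHCII+ CD8+ CD11b-, so that surface MHC class II protein was itself part of the gate in both genotypes, and cells with little or no surface MHC class II were not collected. In such bulk samples, fewer cells of a type and less RNA per cell cannot be told apart.

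MHC class II molecules are pairs of an alpha and a beta chain that show peptides from endocytosed proteins to CD4+ T cells. New pairs are held by the invariant chain Cd74 until they reach endosomes, where cathepsins cut Cd74 down to the fragment CLIP. H2-DM then exchanges CLIP for other peptides, H2-DO holds H2-DM back, and the coactivator Ciita switches on most of these genes. Ciita does not bind DNA itself but sits on RFX, CREB and NF-Y proteins, which bind the X1, X2 and Y boxes of class II promoters. In the I-A molecule, H2-Aa encodes the alpha and H2-Ab1 the beta chain. H2-Eb1 encodes the beta chain of I-E, which is not formed in C57BL/6 mice because they lack a functional alpha chain.

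Of the 10 genes, 8 lie in the class II region of chromosome 17, between 34092340 (the start of H2-Oa) and 34316674 (the end of H2-Eb1) in the mm10 build. Ciita is on chromosome 16, from 10480059 to 10528418, and Cd74 is outside both regions. The RefSeq promoter sequences (GRCm38.p6, 250 bases before to 50 bases after the transcript start) covered 7 of the 10 genes with 8 promoters, and gave none for H2-Ab1, Cd74 and Ciita. The sequence TGATTGG, which holds the CCAAT core of the Y box read on the other strand, was found on either strand in 6 of the 7 genes, and in 7.82% of 32851 promoters. Beside it, AACNNATGATG was searched as the core of the X box. It is the pattern of 11 bases, with 2 free neighbouring bases, that most of these promoters hold within 30 bases in front of TGATTGG, read off the H2-Eb1 promoter. It was found in 4 of the 7 genes and in 0.137% of all promoters, again on either strand. Only 4 of the 32851 promoters (0.0122%) held AACNNATGATG followed within 30 bases by TGATTGG, and these were the promoters of H2-DMb1, H2-DMb2, H2-Eb1 and H2-Ob. Because the letters came from these promoters, the shares are a description and not a test. The 6 stretches with TGATTGG are shown because Ciita sits on proteins that bind class II promoters. The stretches were picked by their letters, and action of Ciita there was not measured. They are written 5′ to 3′ in the direction of transcription, with both motifs in capitals.
H2-Eb1 (chr17:34305761-34305825, plus strand): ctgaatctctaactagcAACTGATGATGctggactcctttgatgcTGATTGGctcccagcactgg
H2-DMb1 (chr17:34153083-34153147, plus strand): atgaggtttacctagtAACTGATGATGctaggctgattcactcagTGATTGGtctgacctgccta
H2-DMb2 (chr17:34145112-34145176, plus strand): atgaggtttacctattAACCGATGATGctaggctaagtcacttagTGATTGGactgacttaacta
H2-Ob (chr17:34238801-34238865, plus strand): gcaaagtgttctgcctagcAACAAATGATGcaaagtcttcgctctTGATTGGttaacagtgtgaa
H2-Aa (chr17:34287854-34287918, minus strand): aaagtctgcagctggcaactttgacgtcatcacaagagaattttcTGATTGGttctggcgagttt
H2-Oa (chr17:34092289-34092353, plus strand): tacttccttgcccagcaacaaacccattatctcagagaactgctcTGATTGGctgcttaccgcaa
The stretches of H2-DMb1 and H2-DMb2, which lie next to each other in the genome, share most of their letters, and the gap between both motifs was 18 bases in each. The gap was 17 bases in H2-Eb1 and 15 bases in H2-Ob. In H2-Aa and H2-Oa the exact letters of the X box core were not in the window. The 2 promoters of H2-DMa held neither motif, which says only that these letters are not in these windows.

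Expression was given as normalized read counts, that is reads per gene divided by a factor for the depth of each library. In the Ppef2+/+ libraries the deposited values added up to between 5295570 and 5434190 normalized counts, and in the Ppef2-/- libraries to between 5344100 and 5482320. Divided by what 1 read was worth in each library, this was 3602420 to 5730070 reads in the Ppef2+/+ libraries. In the Ppef2-/- libraries it was 3902480 to 11651400 reads. These are estimates and not the read totals themselves, because the deposited values lack the level of the sort. Ppef2, the targeted gene, had 197 ± 32.5 normalized counts (mean ± SD, n = 5) in Ppef2+/+ and 14.1 ± 17.2 in Ppef2-/- libraries and was lower in the Ppef2-/- library of all 5 sorts. The level of a whole sort had been taken out of the values before deposit, so that each of the 10 class II genes has 1 fixed total of both genotypes, whichever sort is taken. For these genes a high value of one genotype therefore goes with an equally low value of the other, both genotypes have the same SD, and only the difference within a sort carries information. The sorted cells had the transcripts of cDC1 in every library, with 3695 ± 115 normalized counts of the chemokine receptor Xcr1, 4323 ± 196 of the dead cell receptor Clec9a and 5713 ± 80.3 of Cd8a in Ppef2+/+ cells. Wdfy4, which acts in cross-presentation, was the highest of the 13 cDC1 markers with 28587 ± 539 normalized counts.

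Class II transcripts were among the most abundant of CD8+ cDC1. Together the 10 genes held 4.80% ± 0.0554 (SD, n = 5) of all normalized counts in Ppef2+/+ cells and 4.80% ± 0.0550 in Ppef2-/- cells. Cd74 had the highest normalized count of all genes of the table, with a mean of 109938 over all 10 libraries. H2-Ab1 was at rank 4 with 47171, H2-Eb1 at rank 5 with 43345 and H2-Aa at rank 7 with 41000. Ciita followed at rank 72 with 6825 normalized counts.

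Levels were compared between genes after division by the exon length, which was matched for 10327 genes. Per kb of exon, Cd74 had 77640 normalized counts, H2-Ab1 38920, H2-Aa 36348 and H2-Eb1 25971. The I-A chains were thus close to each other, with a ratio of H2-Aa to H2-Ab1 of 0.934 ± 0.0331 in Ppef2+/+ and 0.935 ± 0.0324 in Ppef2-/- cells (SD, n = 5). There were 2.15 ± 0.0218 and 2.12 ± 0.0210 transcripts of Cd74 per transcript of H2-Aa on this scale. H2-Eb1, whose chain has no partner in this strain, reached 0.661 ± 0.0146 of H2-Ab1 in Ppef2+/+ and 0.674 ± 0.0145 in Ppef2-/- cells.

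The genes for peptide editing were expressed at a lower level. H2-DMb1 had 2196 and H2-DMa 1874 normalized counts per kb, so that the ratio of H2-Aa to H2-DMa was 19.6 ± 0.381 in Ppef2+/+ and 19.2 ± 0.358 in Ppef2-/- cells. H2-DMb2, the second gene for the DM beta chain, had 443 per kb, and H2-DMb1 was 5.06 ± 0.425 times higher in Ppef2+/+ and 4.90 ± 0.372 times higher in Ppef2-/- cells. The genes of H2-DO, which restrains H2-DM, had 1083 (H2-Oa) and 916 (H2-Ob) per kb, and Ciita had 1021. In the order of the levels per kb, the libraries of H2-Ab1 and H2-Aa overlapped, as did those of H2-Oa with Ciita and with H2-Ob, while all other neighbours were separate in all 10 libraries. These spreads do not contain the variation between sorts, which is missing from the deposited values.

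**Figure D1:**
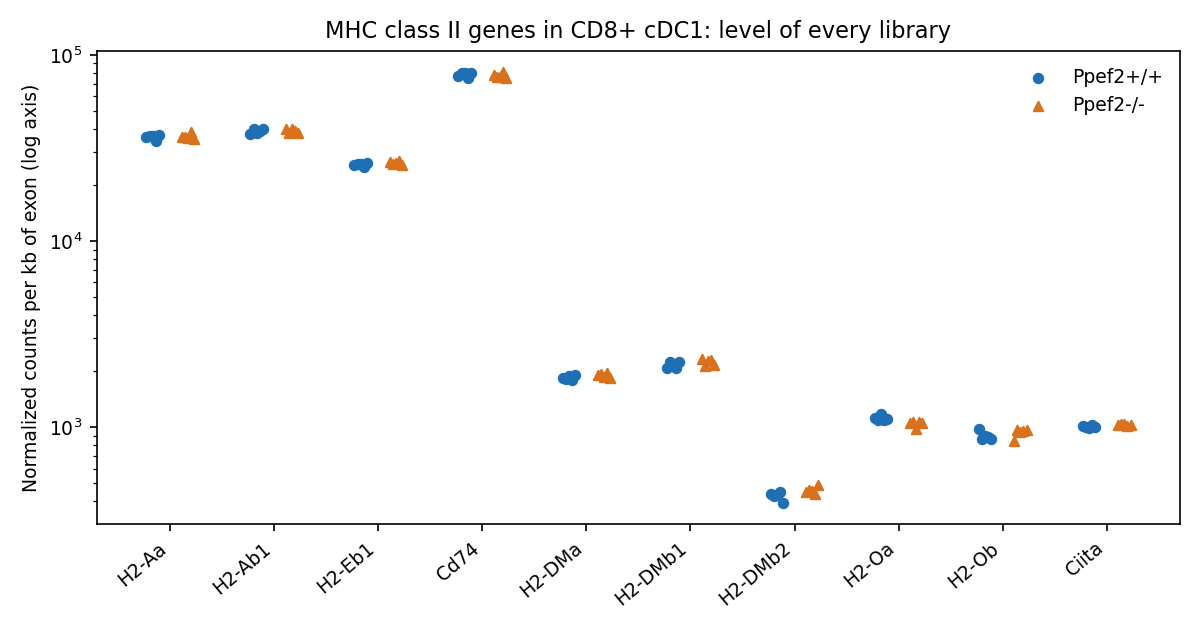
Level of the 10 class II genes in every library, as normalized counts per kb of exon on a log axis. Circles are the 5 Ppef2+/+ and triangles the 5 Ppef2-/- libraries; Cd74 is the highest gene with 77640 and H2-DMb2 the lowest with 443 on average, and the circles and triangles of a gene lie at about the same height.

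Some reads of these genes cannot be assigned with certainty. Of the 50-base stretches of the transcripts, 27.2% of H2-DMb1 and 32.8% of H2-DMb2 also occur in another gene, with 369 stretches shared between both. Of H2-Oa, 21.7% occur in the antisense gene BC051537, which is not in the table, and the library kit does not record the strand. Ciita shared 0.239% with its antisense neighbour Dexi, which had 197 ± 15.0 normalized counts in Ppef2+/+ and 209 ± 15.0 in Ppef2-/- cells. The other 6 genes shared 0 stretches.

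To find out whether loss of Ppef2 changed the transcripts for class II presentation, both genotypes were compared with limma on log2(normalized count + 1), with sorts as blocks. Beside the fit, the genotypes were exchanged within sorts in a two-sided exact permutation test, whose p cannot be below 0.0625 with 5 sorts. None of the 10 genes passed the test for a difference between Ppef2+/+ and Ppef2-/- cells, with the lowest adjusted p at 0.995 (limma, Benjamini-Hochberg over 10767 genes) and an adjusted p under 0.05 in 0.00929% of all genes, which is Ppef2 alone. By unadjusted p under 0.05, 0 of the 10 genes were called, compared to 4.29% of all genes. The median of the 10 log2 differences (Ppef2-/- minus Ppef2+/+) was 0.031, and the median over all genes was 0.00089 with quartiles at -0.07 and 0.072. Leaving out each sort in turn gave medians of the 10 genes between 0.012, without sort 4, and 0.030, and the next lowest was 0.021 without sort 2. For all 10 genes the 95% confidence interval of the difference held 0. As ratios of Ppef2-/- to Ppef2+/+, the intervals reached from 0.863 at the lowest (H2-Oa) to 1.17 at the highest (H2-DMb2). The SE of the 10 genes was between 0.045 and 0.064, whereas the median SE over all genes was 0.105.

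From sort 1 to sort 5, H2-Aa had 40979, 41351, 41508, 38737 and 42017 normalized counts in Ppef2+/+ cells and 41022, 40650, 40493, 43264 and 39984 in Ppef2-/- cells. The genotypes overlapped, and the Ppef2-/- library was the higher one in 2 of 5 sorts, by 11.7% in sort 4. The log2 difference was 0.0058 ± 0.053 (SE), with an interval of the ratio from 0.930 to 1.08 (limma, adjusted p = 0.999, exact permutation p = 0.9375). H2-Ab1 ranged from 45797 to 48456 in Ppef2+/+ and from 45885 to 48544 in Ppef2-/- cells, and was higher in the Ppef2-/- library in 3 of 5 sorts. Its log2 difference was 0.0035 ± 0.052 with an interval of the ratio from 0.929 to 1.08 (limma, adjusted p = 0.999, exact permutation p = 0.8125). H2-Eb1 ranged from 41680 to 43756 in Ppef2+/+ and from 42934 to 45009 in Ppef2-/- cells, with a higher Ppef2-/- library in 4 of 5 sorts. The log2 difference of H2-Eb1 was 0.033 ± 0.051 (limma, adjusted p = 0.995, exact permutation p = 0.25).

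From sort 1 to sort 5, the invariant chain Cd74 had 109146, 112448, 112838, 105802 and 113078 normalized counts in Ppef2+/+ cells. Ppef2-/- cells had 110730, 107428, 107038, 114074 and 106798. As for H2-Aa, the Ppef2-/- library was the higher one in 2 of 5 sorts and stood out most in sort 4, by 7.82%, and the genotypes overlapped. The log2 difference was -0.019 ± 0.058, with an interval of the ratio from 0.908 to 1.07 (limma, adjusted p = 0.997, exact permutation p = 0.625).

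The editing genes of H2-DM did not pass the test either. H2-DMa ranged from 2977 to 3173 normalized counts in Ppef2+/+ and from 3042 to 3238 in Ppef2-/- cells, with a log2 difference of 0.032 ± 0.048 (limma, adjusted p = 0.995, exact permutation p = 0.4375). H2-DMb1 ranged from 2915 to 3157 and from 3010 to 3251, with a log2 difference of 0.053 ± 0.050 (limma, adjusted p = 0.995, exact permutation p = 0.3125). Both were higher in the Ppef2-/- library in 3 of 5 sorts. From sort 1 to sort 5, H2-DMb2 had 623, 606, 616, 640 and 561 normalized counts in Ppef2+/+ cells and 638, 655, 645, 621 and 699.9 in Ppef2-/- cells. It was higher in Ppef2-/- cells in 4 of 5 sorts, and most of the difference came from sort 5, where the Ppef2-/- library was higher by 24.8%. The log2 difference of H2-DMb2 was 0.097 ± 0.064, with an interval of the ratio from 0.975 to 1.17 (limma, adjusted p = 0.995, exact permutation p = 0.1875). Without the block its unadjusted p was under 0.05 and its adjusted p 0.254 (limma), in a comparison that gave such an unadjusted p for 17.5% of all genes.

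For H2-DMb2 the reads themselves could be calculated back, because 1 read was worth a fixed amount in each library. From sort 1 to sort 5 there were 364, 405, 477, 748 and 589 reads in Ppef2+/+ cells and 1104, 1018, 796, 636 and 530 in Ppef2-/- cells. The many reads of the Ppef2-/- libraries of sorts 1 and 2 go with their depth. Estimated from the deposited sums, it was 2.97 and 2.28 times that of the Ppef2+/+ library. Reads times the value of 1 read gave levels with the sort means still in place. These were 498, 552, 717, 691 and 587 in Ppef2+/+ cells and 513, 601, 746, 672 and 726 in Ppef2-/- cells. The level thus differed more between sorts than between genotypes, with 609 ± 92.8 in Ppef2+/+ and 652 ± 95.6 in Ppef2-/- cells (SD, n = 5), as opposed to an SD of 29.8 in the deposited values. The mean log2 ratio within sorts was 0.098 ± 0.13 (SD), with an exact permutation p of 0.125. The calculation was limited beforehand to genes below 1000 normalized counts in every library, and was not tried for the other 9 genes.

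**Figure D2:**
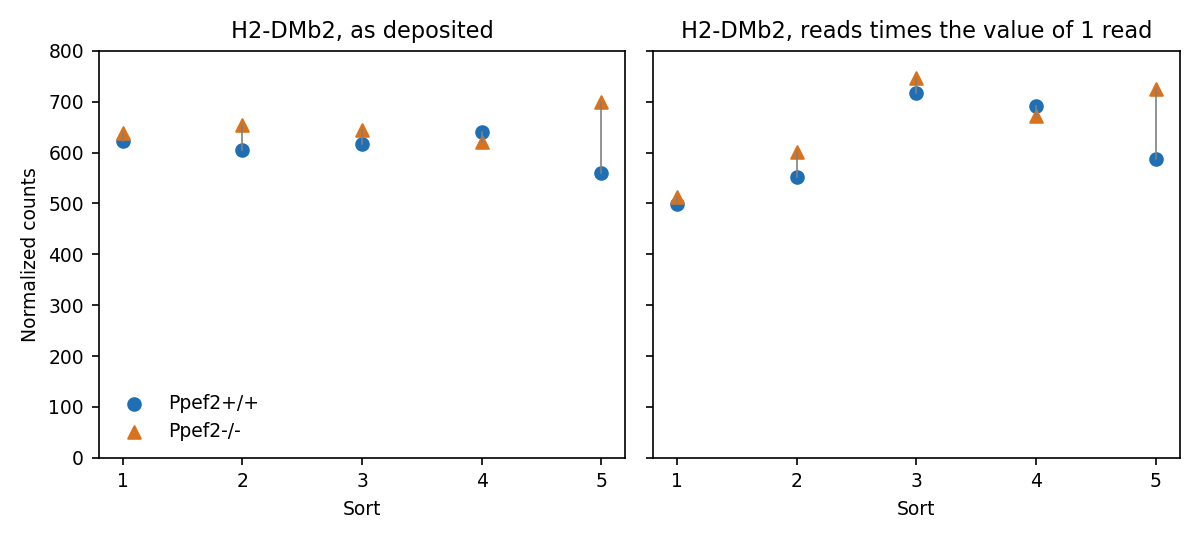
H2-DMb2 by sort, on the left as deposited and on the right as reads times the value of 1 read, both in normalized counts. Circles are Ppef2+/+ and triangles Ppef2-/- libraries, with a line joining both libraries of a sort; sorts 1 to 5 lie at about 1 level on the left, and between 498 and 746 on the right, while the distance within each sort is the same in both panels.

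The genes of H2-DO had differences of opposite sign, and neither passed the test. From sort 1 to sort 5, H2-Oa had 1213, 1194, 1288, 1190.0 and 1204 normalized counts in Ppef2+/+ cells and 1143, 1162, 1067, 1166 and 1151 in Ppef2-/- cells. It was lower in the Ppef2-/- library of all 5 sorts, and is the only 1 of the 10 genes whose genotypes did not overlap. Because both genotypes add up to a fixed total, these are 1 observation, and the smallest exact permutation p follows from it as well. Of all genes, 2.92% were lower in all 5 sorts and 3.26% higher, which makes 6.18% without overlap. None of the 10 class II genes was higher in all 5 sorts. The difference to Ppef2+/+ cells was -17.2% in sort 3 and between -5.81% and -2.04% in the other sorts. On the log2 scale it was -0.098 ± 0.054, with an interval of the ratio from 0.863 to 1.01 (limma, adjusted p = 0.995), and the exact permutation test within sorts gave p = 0.0625, the smallest it allows. Without the block the unadjusted p of H2-Oa was under 0.05, too, and the adjusted p was 0.148 (limma). None of the 10 genes had an adjusted p under 0.05 without the block, compared to 0.957% of all genes. H2-Ob, the partner of H2-Oa, had 2627, 2313, 2383, 2357 and 2306 normalized counts in Ppef2+/+ cells and 2265, 2579, 2509, 2535 and 2586 in Ppef2-/- cells of the same sorts. Compared to the Ppef2+/+ library, the Ppef2-/- library differed by -13.8% in sort 1 and was higher by 5.29% to 12.2% in the other 4 sorts. The log2 difference of H2-Ob was 0.057 ± 0.056 (limma, adjusted p = 0.995, exact permutation p = 0.4375), and without sort 1 it was 0.13 with an unadjusted p under 0.05 (limma, adjusted p = 0.998). The ratio of H2-Ob to H2-Oa per kb was 0.803 ± 0.0487 in Ppef2+/+ and 0.894 ± 0.0552 in Ppef2-/- cells and was higher in the Ppef2-/- library in 4 of 5 sorts. The ratio of H2-DMa to H2-Oa, that is of a chain of the editor to a chain of its inhibitor, was 1.66 ± 0.0462 and 1.81 ± 0.0550 and was higher in 5 of 5 sorts. Because H2-Oa was itself lower in all 5 sorts, this ratio is not separate from that difference. The ratio of H2-DMa to H2-Ob, the other chain of the inhibitor, was not calculated.

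From sort 1 to sort 5, Ciita had 6776, 6679, 6667, 6896 and 6743 normalized counts in Ppef2+/+ cells and 6873, 6970.0, 6982, 6753 and 6906 in Ppef2-/- cells. It was higher in Ppef2-/- cells in 4 of 5 sorts, by at most 4.73%, and the genotypes overlapped. The log2 difference was 0.031 ± 0.045, with an interval of the ratio from 0.957 to 1.09 (limma, adjusted p = 0.995, exact permutation p = 0.1875). The SD of its 5 log2 ratios, 0.039, was the lowest of the 10 genes.

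**Figure D3:**
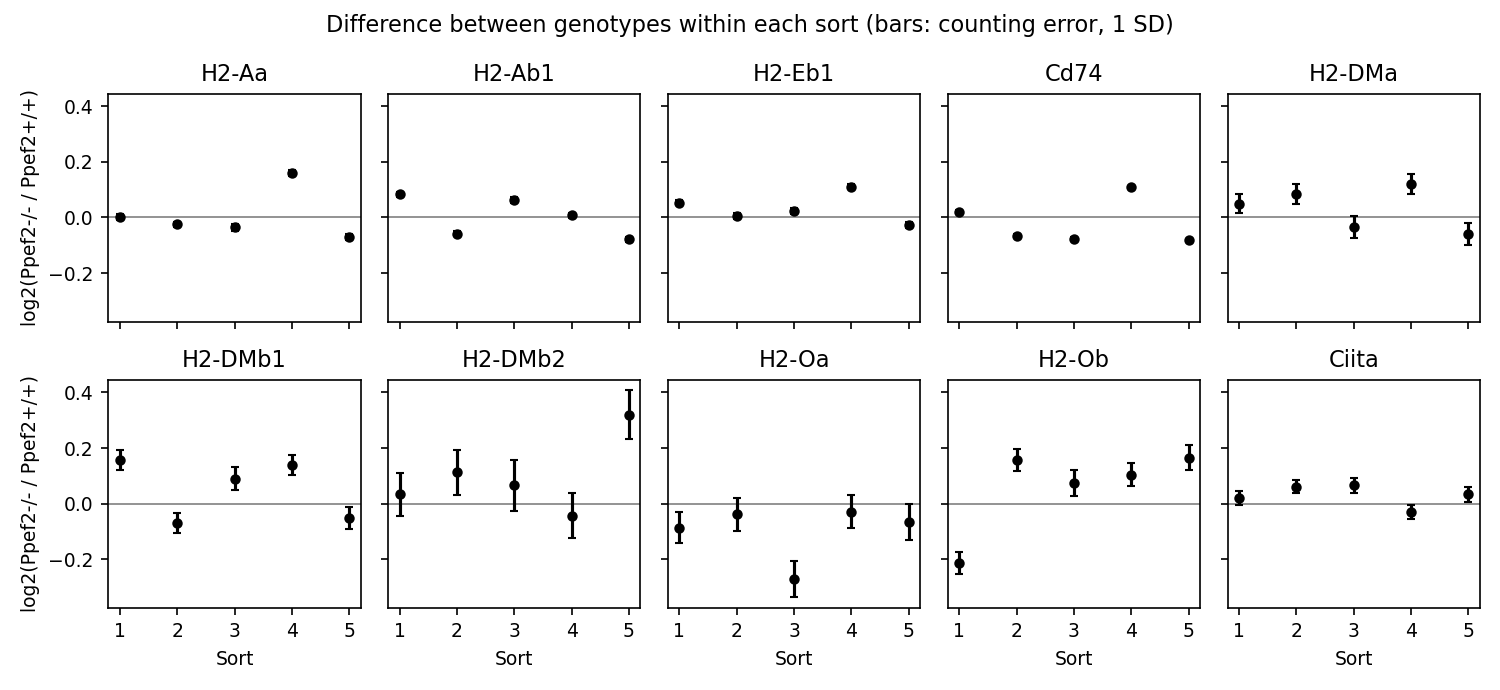
Log2 ratio of the Ppef2-/- to the Ppef2+/+ library of each sort for the 10 class II genes; the y axis is the log2 ratio, the x axis the sort, and bars are 1 SD of counting error. H2-Oa lies below 0 in all 5 sorts, H2-Ob is below 0 in sort 1, H2-DMb2 is highest in sort 5, and H2-Aa and Cd74 are both highest in sort 4.

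The spread of the within-sort log2 ratios over the 5 sorts was larger than counting alone would give. For Cd74, with 73620 to 235165 reads per library at its mean level, the SD of the 5 log2 ratios was 0.083 and counting alone gives an SD of 0.0063, so that the observed SD was 13.1 times larger. It was 8.67 times larger for H2-Aa, 7.44 times for H2-Ab1 and 5.19 times for H2-Eb1. In these abundant genes, counting was thus a small part of the spread of the within-sort log2 ratios. For H2-DMb2, with 405 to 1403 reads, and for H2-Oa, with 810 to 2450 reads, the observed SD was 1.63 times that of counting, and for Ciita it was 1.53 times. H2-Ob was the most variable gene, with an SD of 0.16, which was 3.68 times that of counting.

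**Figure D4:**
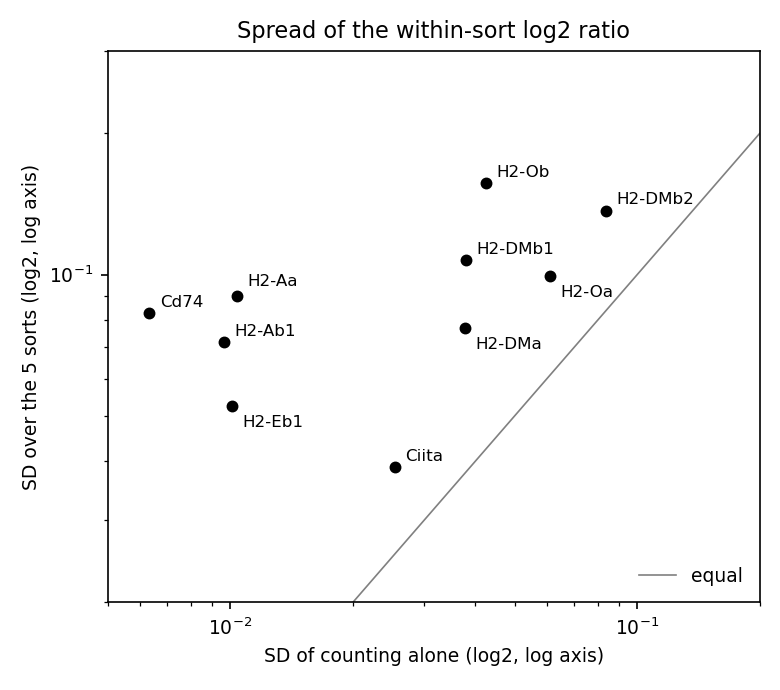
SD of the within-sort log2 ratio over the 5 sorts (y axis) against the SD from counting alone (x axis), both on log axes, 1 point per class II gene; the line marks equal values. All 10 points lie above the line, Cd74 farthest with a factor of 13.1 and Ciita nearest with 1.53.

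The likeness between genes from sort to sort was uneven. H2-Aa and Cd74 had the most similar log2 ratios of all pairs among the 10 genes, with a root mean square difference of 0.036 over the 5 sorts, followed by H2-Eb1 and H2-DMa with 0.045. H2-Ab1 followed them less closely, at 0.090 from H2-Aa and 0.082 from Cd74. In sort 3 its log2 ratio was 0.063, compared to -0.036 for H2-Aa and -0.076 for Cd74, and in sort 4 it was 0.0074, compared to 0.16 and 0.11. H2-DMb2 and H2-Oa were the least similar pair with 0.24. Because all genes of a library share its scaling, this is a description over 5 sorts only. The sum of all deposited values moved in the same directions, with log2 ratios of 0.012, -0.02, -0.014, 0.05 and -0.024 in sorts 1 to 5, while the sum of the class II genes had 0.034, -0.038, -0.021, 0.094 and -0.064. The mean of the class II sum was 0.0011 ± 0.063 (SD, n = 5).

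The mean ratios of H2-Aa, H2-Ab1, H2-Eb1 and Cd74 were 0.040, -0.036, -0.0065, 0.097 and -0.065 in sorts 1 to 5. Among the 6856 genes with a mean of at least 100 normalized counts, those most similar to this profile included the ribosomal protein gene Rpl18 (root mean square difference 0.024), the lysosomal mannosidase gene Man2b1 (0.026), the gene of the myosin phosphatase partner Mprip (0.028) and that of the inositol phosphatase Inpp5d (0.029). The median over the 6856 genes was 0.17. In the same order H2-DMa was at place 135, H2-DMb1 at 350, Ciita at 683, H2-Oa at 2358, H2-Ob at 3590 and H2-DMb2 at 4140. By this measure the DO genes and H2-DMb2 were not closer to the abundant class II genes than many other genes were. The measure also holds the mean difference of a gene and its counting error. The SD of counting alone was 0.084 for H2-DMb2, 0.061 for H2-Oa and 0.042 for H2-Ob, compared to 0.0063 for Cd74. A late place therefore does not show that a gene failed to follow the profile across sorts.

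The other genes of the pathway were described by lists. Factors that bind class II promoters were Rfx5, Rfxank and Rfxap of RFX, Nfya, Nfyb and Nfyc of NF-Y, and Creb1 and Atf1 for the X2 box. All 8 were in the table, and 0 had an unadjusted p under 0.05 (limma), compared to 4.29% of all genes. Their median log2 difference was -0.070, with 6 genes below 0 and 2 above. Nfya had 731 ± 5.32 normalized counts in Ppef2+/+ and 773 ± 5.32 in Ppef2-/- cells (limma, adjusted p = 0.995, exact permutation p = 0.0625). It was higher in the Ppef2-/- library of all 5 sorts, as were 3.26% of all genes. Rfx5 had 516 ± 16.8 normalized counts in Ppef2+/+ and 546 ± 16.8 in Ppef2-/- cells, with a log2 difference of 0.082 ± 0.063 (limma, adjusted p = 0.995, exact permutation p = 0.1875). Rfxank, with 99.3 ± 14.1 and 87.6 ± 14.1, and Rfxap, with 161 ± 20.5 and 149 ± 20.5, had wider intervals of the log2 difference, from -0.50 to 0.13 and from -0.36 to 0.15.

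Of 10 regulators of Ciita, 9 were in the table and Prdm1 was not. Their median log2 difference was -0.0026. The transcription factors of cDC1 development did not pass the test, with 13561 ± 351 and 13337 ± 351 normalized counts of Irf8 (limma, adjusted p = 0.997, exact permutation p = 0.5) and 1669 ± 79.9 and 1584 ± 79.9 of Spi1 (limma, adjusted p = 0.995, exact permutation p = 0.3125).

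All 12 genes for processing and traffic of class II molecules were in the table, and their median log2 difference was 0.0046. Of these, 0 had an unadjusted p under 0.05 (limma), compared to 4.29% of all genes. Ctss, the protease that cuts Cd74 in dendritic cells, had 2779 ± 140.1 and 2744 ± 140.1 normalized counts with a ratio interval from 0.913 to 1.07. Ctsl, which does this in thymic epithelium, had only 63.5 ± 7.68 and 63.4 ± 7.68. The thiol reductase Ifi30 had 2253 ± 70.7 and 2372 ± 70.7, the protease Lgmn 214 ± 16.6 and 207 ± 16.6, and Sppl2a, which removes the stump of Cd74 from the membrane, 958 ± 25.6 and 981 ± 25.6. March1, the ligase that marks surface class II for removal, had 1737 ± 65.7 and 1700 ± 65.7 (limma, adjusted p = 0.995). Its opponent Cd83 had 4653 ± 418 and 4917 ± 418 with log2 ratios between -0.14 and 0.51 within sorts.

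Class I genes were set beside these because Nlrc5 does for class I what Ciita does for class II. All 7 were in the table, with a median log2 difference of 0.048, and 1 had an unadjusted p under 0.05 and a higher level in Ppef2-/- cells, compared to 2.3% of all genes. This was Nlrc5, with 1661 ± 101 and 1828 ± 101 normalized counts and a log2 difference of 0.14 ± 0.059 (limma, adjusted p = 0.995, exact permutation p = 0.1875), higher in the Ppef2-/- library in 4 of 5 sorts. The class I chains and their partner did not pass the test, with log2 differences of 0.045 ± 0.046 for H2-K1, 0.048 ± 0.048 for H2-D1 and 0.060 ± 0.053 for B2m (limma, adjusted p = 0.995 for each).

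**Figure D5:**
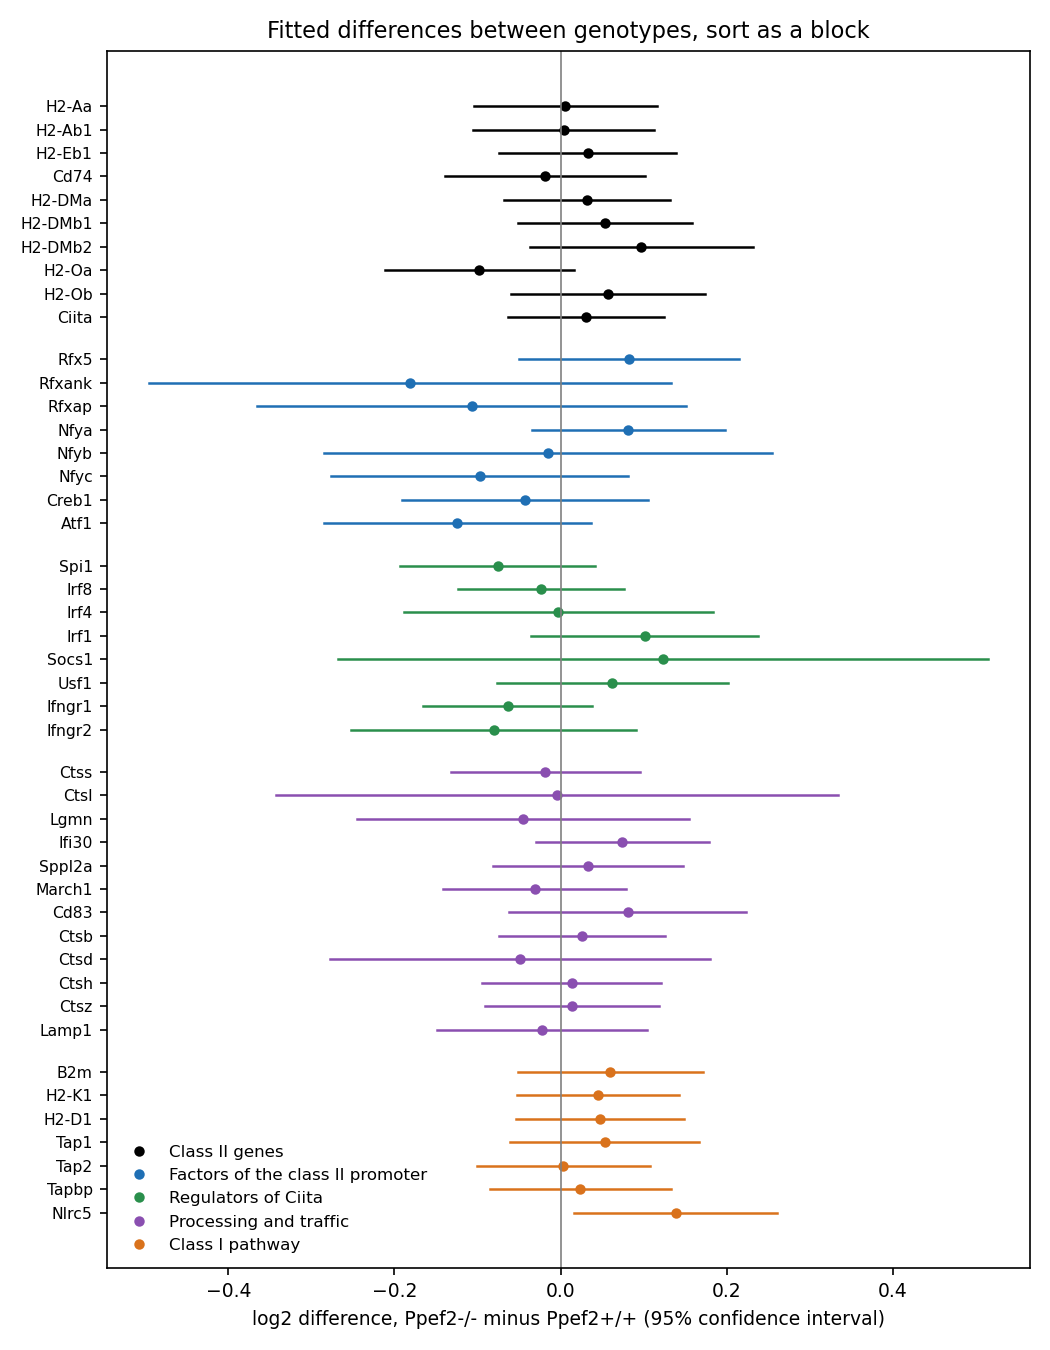
Fitted log2 differences (Ppef2-/- minus Ppef2+/+, x axis) with 95% confidence intervals for the 10 class II genes and genes of 4 related lists, fitted with limma and sorts as blocks. The intervals of all 10 class II genes hold 0, and that of Nlrc5 does not.

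Cells of other types could carry class II transcripts into the sort, and their markers were therefore checked. Of 14 B cell markers, 4 were in the table (Cd79b, Ms4a1, Cd22 and Fcrla), and their sum was 395 to 458 normalized counts in Ppef2+/+ and 392 to 456 in Ppef2-/- libraries. Cd79a and Pax5, which define B cells, were not in the table. Of 8 T cell markers 1 was in the table, Cd5. All 10 cDC2 markers were present with sums of 3234 to 3799 and 3406 to 3970, mostly from Klf4, which had a log2 difference of 0.19 ± 0.058 (limma, adjusted p = 0.995, exact permutation p = 0.125). Itgam, which encodes the CD11b of the gate, had 31.4 ± 4.36 and 30.5 ± 4.36. The sum of 11 of 12 macrophage and monocyte markers was 2356 to 2698 and 2377 to 2719, with Lyz2 and Cd68 the highest. Ly6c2 had a log2 difference of -0.45 ± 0.20 (limma, adjusted p = 0.995, exact permutation p = 0.25). Markers of pDCs were the only ones whose sums did not overlap, with 1651 to 1760 normalized counts in Ppef2+/+ and 1478 to 1587 in Ppef2-/- libraries over 9 of 10 genes. Among these, Tcf4 had a log2 difference of -0.31 ± 0.074 (limma, adjusted p = 0.711, exact permutation p = 0.0625). Siglech had one of -0.25 ± 0.11 (limma, adjusted p = 0.995, exact permutation p = 0.0625). Both were lower in the Ppef2-/- library of all 5 sorts, as were 2.92% of all genes, and 6.18% had no overlap in either direction. Tcf4 alone had 423 ± 19.6 normalized counts in Ppef2+/+ and 342 ± 19.6 in Ppef2-/- cells. The sums thus do not describe the 9 genes evenly. Of the 9 genes, 7 had a log2 difference below 0 and 2 above 0, namely Ccr9 with 0.028 ± 0.082 and Spib with 0.038 ± 0.13. Tcf4 and Siglech, 2 of the 9 genes, and Ly6c2 had an unadjusted p under 0.05 (limma) and a lower level, as had 1.99% of all genes. Klf4 had an unadjusted p under 0.05 (limma) and a higher level, as had 2.3% of all genes. The summed class II genes overlapped between genotypes, with 250263 to 264435 and 253013 to 267184 normalized counts. The part of pDC transcripts in the class II values was not tested.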

How the data were processed

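RNA of CD8+ cDC1 from 5 sorts was measured in 5 Ppef2+/+ and 5 Ppef2-/- libraries, grouped by the labels. Single-end reads of 50 bp were aligned by the authors to mm10 (the methods name HISAT, the submitters' processing notes TopHat2 2.0.3), counted reads per gene in Partek, normalized with DESeq2 and set low values to 1. Genes with a mean under 10 in both genotypes were removed. What was deposited is thus a signal of normalized counts, and not of raw ones. The table had 10 columns of libraries, which were all used.

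In the 10721 genes without a value of 1, the sum of both libraries was equal over all 5 sorts (relative spread at most 6.28e-06). The sort means had thus been removed; which step did so is not given in the sources used here. The sort numbers of the labels mark shared sorts and pair the libraries, and deviations from the genotype means mirror each other. The sort was therefore a block in the main fit, whereas the one-way model of the study has none.

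Differences were fitted with limma 3.58.1 (eBayes with a trend) in R 4.3.3 on log2(value + 1), two-sided, adjusted by Benjamini-Hochberg over 10767 genes. No filter was added. The SEs and p-values of limma are moderated. They combine the spread of a gene between 5 pools of 3 mice with the spread of the other genes, and are not those of its own 5 sorts alone. Single genes were compared by exact exchange of genotypes within sorts. The value of 1 read (0.464 to 1.50 normalized counts) was searched per library so that low genes came out as whole reads. All 3862 genes with a mean under 100 then had exactly 1 set of reads. Counting SDs cover counting error only. Exon lengths and shared 50-base stretches came from RefSeq-matched GENCODE transcripts, promoters from RefSeq. Scripts were tested on simulated data.

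The genes and lists were chosen with earlier results of these data known. Named were the 10 class II genes, fixed genes of each pathway list, up to 5 genes per list with an unadjusted p under 0.05, Ppef2, the highest or defining genes of each marker list and the 5 genes most similar to the abundant class II genes; a few genes of these groups are not reported here. Dexi, Nfya, Nfyb, Nfyc, Creb1, Atf1 and the members of the marker lists were named to describe the lists. Alternatives were no block, pseudocounts of 0 and 10, a mean of at least 50, eBayes without a trend, a linear scale, 3 other scalings and each sort left out.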

Additional observations from a re-analysis of the deposited data

Results flagged for a closer look

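Among 22 groups of 5 libraries compared, 4 held a library far from the other 4, where about 1.1 would be flagged by chance. They form 2 mirrored pairs, since both libraries of a sort add up to a fixed sum. H2-Oa in sort 3 had 1288 normalized counts in the Ppef2+/+ library, above the other Ppef2+/+ libraries, and 1067 in the Ppef2-/- library, below the other Ppef2-/- libraries. Without sort 3 the log2 difference of H2-Oa was -0.055 (limma, adjusted p = 1.00). H2-Ob in sort 1 had 2627 normalized counts in the Ppef2+/+ library and 2265 in the Ppef2-/- library, which turned its difference against that of the other 4 sorts. Without sort 1 the log2 difference of H2-Ob was 0.13, with an unadjusted p under 0.05 (limma, adjusted p = 0.998). What set these libraries apart was not tested.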

How the results depend on the processing

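Values without the variation between sorts, 5 sorts and a gate on surface MHC class II limit what these data can show. Without the sort as a replicate block, 2 class II genes (H2-DMb2 and H2-Oa) had an unadjusted p under 0.05 (limma) in place of 0. Of all genes, 17.5% had such a p without the block, compared to 4.29% with it. By adjusted p under 0.05, 103 genes of the table in place of 1 were called. A model without the block counts the missing sort means as residual freedom. On a linear scale 1 class II gene (H2-Oa, adjusted p = 0.995) had an unadjusted p under 0.05 (limma), as had 474 of all 10767 genes. With eBayes without a trend 0 genes had an adjusted p under 0.05 and 539 an unadjusted one. Leaving out each sort in turn, 0 to 1 class II genes had an unadjusted p under 0.05 (limma), compared to 386 to 582 of all 10767 genes. The class II gene was H2-Ob without sort 1, where 424 of all genes had such a p. By adjusted p under 0.05, 1 to 4 genes of the table were called, with 4 without sort 4 and 2 without sort 1. The log2 difference of H2-Aa lay between -0.033 and 0.025 and that of H2-Ab1 between -0.017 and 0.024 over these fits, so that both changed sign at values near 0. Without sort 4 the log2 difference was 0.0097 in place of 0.032 for H2-DMa and 0.013 in place of 0.033 for H2-Eb1, and the median of the 10 genes was 0.012 in place of 0.031. No class II gene had an adjusted p under 0.05 in any alternative run, the lowest being 0.148 without the block. Other causes were not tested.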
